A study of Rattus norvegicus with 14 samples.

Results

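The NF-kappaB subunits and their inhibitors were followed as 10 genes chosen by symbol: the subunit genes Nfkb1, Nfkb2, Rel, Rela and Relb, the inhibitor genes Nfkbia and Nfkbib, the kinase genes Ikbkb and Chuk, and the feedback inhibitor Tnfaip3. All 10 were found in both tables of values, among 18239 genes listed for neurons and 31791 for astrocytes. The cells were primary hippocampal neurons and astrocytes of Sprague Dawley rats at embryonic day 18. Every library came from cells held in a supplement-reduced Aging Model (AM) medium, which differed between the cell types. For neurons it was Neurobasal medium with a reduced amount of supplement, and for astrocytes a DMEM-based medium with charcoal-stripped serum. Allopregnanolone (Allo), a neurosteroid made from progesterone that modulates GABA-A receptors, was given at 100 nM and compared with its vehicle (Veh), 0.001% ethanol. Neurons at day 10 of culture had 4 h in AM medium and then 16 h of treatment (4 Veh and 4 Allo libraries). Astrocytes had 24 h in AM medium and then 24 h of treatment (3 Veh and 3 Allo libraries), and were enriched from mixed glia by shaking off microglia and oligodendrocytes.

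NF-kappaB is a family of dimeric transcription factors. In the canonical arm, receptors for cytokines and microbial products activate the IκB kinase, whose catalytic subunits are made from Ikbkb and Chuk, and the kinase marks the inhibitor IκBα (Nfkbia) for destruction so that dimers holding RelA (Rela), c-Rel (Rel) and the processed Nfkb1 product enter the nucleus. In the non-canonical arm, the Chuk kinase drives processing of the Nfkb2 product, which pairs with RelB (Relb). Nfkbia, Nfkb2 and Tnfaip3, which encodes the ubiquitin-editing enzyme A20, are themselves target genes of the dimers, and in the brain the pathway is best known for the inflammatory responses of glia.

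The sequence that these dimers bind, the κB consensus, was searched on both strands, overlapping matches included, in RefSeq promoter windows of build GRCr8 that run from 250 bases before to 50 bases after each start site. Of the 10 genes, 8 had an entry (Relb and Ikbkb had none), and 5 of these 8 held a match. Of these 5, Nfkb2, Nfkbia and Tnfaip3 were called in astrocytes below, and Nfkb1 and Rel were not. A link between match and call was not tested. The stretches that hold the matches are shown with matching bases in capitals and 5′ to 3′ along the gene's own strand.
Nfkb2 (chr1:255108344-255108373, plus strand): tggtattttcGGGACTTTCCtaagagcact
Nfkb1 (chr2:226805440-226805469, minus strand): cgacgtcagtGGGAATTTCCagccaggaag
Rel (chr14:101922000-101922030, minus strand): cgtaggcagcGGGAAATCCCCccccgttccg
Nfkbia (chr6:78597084-78597113, minus strand): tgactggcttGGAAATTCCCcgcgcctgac
Tnfaip3 (chr1:15544015-15544159, minus strand): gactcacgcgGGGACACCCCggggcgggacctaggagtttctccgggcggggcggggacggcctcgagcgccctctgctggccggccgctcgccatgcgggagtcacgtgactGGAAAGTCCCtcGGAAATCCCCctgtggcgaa
The match began 20 bases before the start site in Nfkb2, 31 before it in Nfkbia and just after it in Nfkb1. The Tnfaip3 promoter held 3 matches, the first 170 and the last 55 bases before the start, and the 3 matches in Rel overlapped one another. No match was found in the windows of Rela, Nfkbib and Chuk. A match was present in 62.5% of the 8 member promoters, in 9 of the 23 promoters found for a list of 33 known target genes (39.1%), and in 4.18% of all 33469 promoters.

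Values below are normalized counts, the authors' read counts per gene after scaling between libraries, and a difference is the Allo mean minus the Veh mean of log2(normalized count + 1). Column totals were 21984994 to 22357547 in neurons and 23783755 to 24006620 in astrocytes, and differences between genes in level are not read because transcript length enters them. Genes with a mean of at least 10 were tested with limma, 15314 in neurons and 15380 in astrocytes, and a gene is called at the threshold that the study used, an unadjusted p under 0.05, or at an adjusted p under 0.05 over all genes tested. The labels do not say that replicates were separate cultures, so p-values measure the spread between these libraries, which may be technical. In whole cultures, fewer cells of a type and less RNA per cell cannot be told apart. Neuron markers were present in the neuron cultures (6 of 7 above the minimum mean, summed 38457 to 45907), but astrocyte markers summed to 196206 to 256022 there, and oligodendrocyte lineage markers to 38365 to 45308, so the cultures labelled as neurons held RNA of all 3 classes. Astrocyte markers summed to 234790 to 248620 in the astrocyte cultures, beside 60498 to 71815 for mesenchymal markers. Of the 6 mesenchymal markers 4 passed the minimum there, and Dcn and Lum did not. Most of that sum came from the collagen genes Col1a1, Col1a2 and Col3a1 (means of 23505, 29769 and 8841 in Veh). All 10 microglial markers passed the minimum in the astrocyte cultures (summed 1488 to 1899), and 2 of 10 did in the neuron cultures (92.6 to 166).

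In neurons, the NF-kappaB genes were expressed in every library and 1 of the 10 was called between Allo and Veh, Rel, which was lower with Allo. Across all genes 2.48% were called lower and 3.21% higher, and a single member called in 10 gives no result about the members as a group. No member reached an adjusted p under 0.05 in limma, a mark that 0.0261% of all genes reached. The difference was negative for 8 of 10 members, with a median of -0.06 (median of all genes -0.0015), and Relb and Nfkbib were the members on the positive side. Cell type markers moved with Allo in the same libraries: 3 of 6 neuron markers were called higher, Map2 by 0.10, Tubb3 by 0.21 and Slc17a7 by 0.29. None of 8 astrocyte, 8 oligodendrocyte lineage, 6 mesenchymal or 2 microglial markers tested was called. With the block described below, 5 of 8 oligodendrocyte lineage markers were called higher, and Gad1, a gene of GABA synthesis, was called lower beside those 3 neuron markers. Tubb3 and Gad1 reached an adjusted p under 0.05 with it (0.044 and 0.0392). The block also called 2 of 8 astrocyte markers, Slc1a2 higher and Gja1 lower, and 1 of 6 mesenchymal markers, Col3a1, higher. The part of all these cells in the member differences was not tested. No member had all 4 Allo libraries above (2.06% of all genes) or below (1.89%) all 4 Veh libraries.

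Rel, which encodes c-Rel, the subunit best known from lymphoid cells, had low counts throughout. It stood at 24.7, 15.7, 26.4 and 26.3 normalized counts in Veh 1-1, 1-2, 2-1 and 2-2. In the Allo libraries with the same numbers it stood at 11.2, 17.9, 9.05 and 16.9. The Veh libraries 1-1, 2-1 and 2-2 lay above every Allo library, and Veh 1-2 lay inside the Allo range. The mean was 23.3 ± 5.14 in Veh and 13.8 ± 4.34 in Allo (SD, n = 4), a difference of -0.74 ± 0.28 (SE; 95% interval -1.36 to -0.11) with an unadjusted p of 0.0247 and an adjusted p of 0.792. A two-sided exact permutation test gave p = 0.0857, where 0.0286 is the smallest value that 4 against 4 allows. The call was kept in 3 of 8 fits that left out 1 library, with unadjusted p-values from 0.01 to 0.0714, and was lost without Veh 1-1, 2-1 or 2-2 or Allo 1-1 or 2-1.

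The other canonical subunits differed by less. Rela, the main activating subunit, stood at 881 ± 19.6 in Veh and 868 ± 50.1 in Allo, and its difference of -0.02 had an interval of -0.13 to 0.08. Nfkb1, the precursor of the p50 subunit, stood at 807, 843, 929 and 965 in the Veh libraries 1-1, 1-2, 2-1 and 2-2. In Allo it stood at 803, 814, 865 and 825 in the same order. Each Allo library was below the Veh library of its own number, which is not known to pair them, and the groups overlapped. The difference in Nfkb1 was -0.10 ± 0.06 (SE) with an unadjusted p of 0.138, and with the first part of the number as a block the unadjusted p was 0.0448 and the adjusted p 0.443. That block made 2 members called, Rel and Nfkb1, both lower, where 5.24% of all genes were lower. It is given here because libraries with the same first part of the number deviated together.

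**Figure D1:**
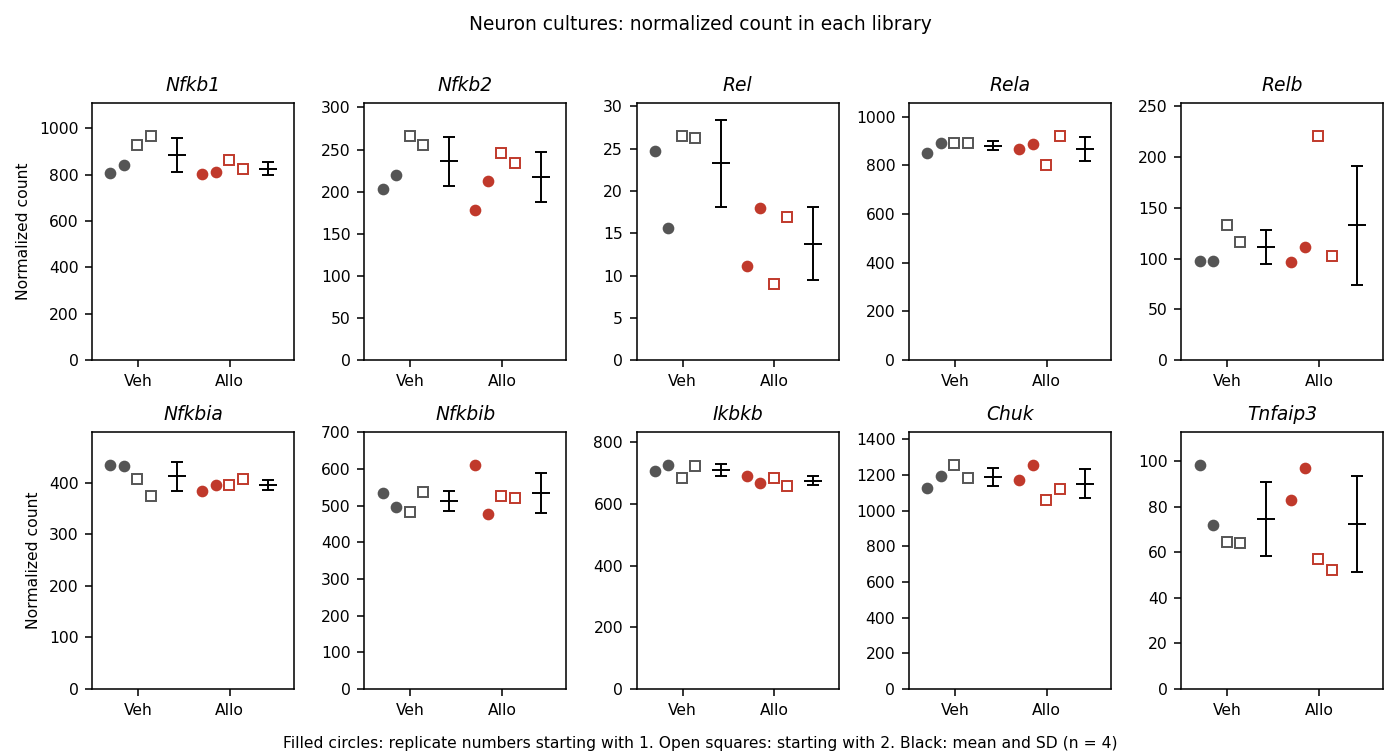
Normalized counts (vertical axes, from 0) of the 10 genes in each neuron library, Veh in grey and Allo in red, filled circles for replicate numbers that start with 1, open squares for those that start with 2, and black bars for mean and SD (n = 4). Rel was lower in Allo with 1 Veh library inside the Allo range, 1 Allo library of Relb stood at 220.0, and Tnfaip3 and Nfkb2 separated by the first part of the number.

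The non-canonical subunits were not called in neurons. Relb stood at 98, 97.2, 132.6 and 117 in Veh and at 97.1, 111.5, 220.0 and 102 in Allo, again in the order 1-1, 1-2, 2-1, 2-2. Allo 2-1 was far above the other libraries, and the difference of 0.18 (interval -0.35 to 0.71) was -0.09 without it. Nfkb2 stood at 236 ± 29.1 in Veh and 218 ± 29.8 in Allo, a difference of -0.12 (interval -0.38 to 0.15).

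None of the inhibitors and kinases of the pathway was called in neurons. Nfkbia stood at 413 ± 28.3 in Veh and 396 ± 9.38 in Allo (difference -0.06, interval -0.19 to 0.08). Nfkbib, which encodes the related inhibitor IκBβ, stood at 512 ± 27.4 and 534 ± 55.3 (0.06, interval -0.11 to 0.22). Ikbkb, the canonical catalytic kinase subunit, stood at 706, 726, 686 and 723 in Veh and at 691, 668, 683 and 660 in Allo. Only Allo 1-1 reached into the Veh range, above the lowest Veh library. Its difference of -0.07 ± 0.04 (SE) had an unadjusted p of 0.12 and a two-sided exact permutation p of 0.0571. Chuk, whose kinase serves both arms, stood at 1190 ± 51.5 and 1152 ± 81.6 (-0.05, interval -0.17 to 0.07). Tnfaip3 stood at 74.6 ± 16.1 and 72.3 ± 21.2 (-0.07), and its interval of -0.55 to 0.42 leaves its direction unresolved.

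The member differences in neurons that reached an adjusted p under 0.05 followed the first digit of the library number (1 or 2), whose meaning the labels do not give. Each number holds 2 Veh and 2 Allo libraries, so it is balanced against treatment. Between libraries 2-1 and 2-2 on one side and 1-1 and 1-2 on the other, 4 of 10 members were called, where 29.3% of all genes were, and 2 of 10 at an adjusted p under 0.05, where 17.2% of all genes were, so both shares are near those of all genes. Nfkb2 was 203 ± 18.01 in the libraries with first number 1 and 250.2 ± 13.2 in those with 2 (SD, n = 4). Every library of number 2 lay above every library of number 1, at 234 or more against 219 or less, and the difference was 0.30 ± 0.08 (SE; adjusted p = 0.0166).

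Tnfaip3 went the other way, from 87.4 ± 12.5 to 59.4 ± 5.83. The values were 98.1 and 71.9 in Veh 1-1 and 1-2, and 82.7 and 97 in Allo 1-1 and 1-2. The libraries of number 2 stood at 64.4 and 63.9 in Veh and at 57.2 and 52.2 in Allo, all below those of number 1. The difference was -0.54 ± 0.14 (SE; adjusted p = 0.0172). Within number 1 the Allo minus Veh difference of Tnfaip3 was 0.09 and within number 2 it was -0.23, each from 2 libraries a group and with no test. The adjusted calls were kept in 6 of 8 fits that left out 1 library for Nfkb2 and in 5 of 8 for Tnfaip3.

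Nfkb1 was higher in number 2 by 0.13 (unadjusted p of 0.00946, adjusted p = 0.0533) and Relb by 0.43 (unadjusted p of 0.0284, adjusted p = 0.116). For Relb the difference was 0.20 without Allo 2-1, with an unadjusted p of 0.156. The other 6 members had intervals that include 0. Of 18 known target genes tested, 9 were higher in number 2 at an adjusted p under 0.05, where 9.61% of all genes were. They included Junb, a subunit of the transcription factor AP-1 (357 to 664, difference 0.89), and Ier3, an early-response survival gene (59.4 to 190.4, difference 1.66). Markers of other cells moved with the same split: 4 of 6 mesenchymal markers were lower at an adjusted p under 0.05 and 1 was higher (median of the 6 -1.43), while astrocyte markers went both ways, with 4 of 8 higher (Gfap, an astrocyte filament gene, by 0.62) and 2 lower. Of 8 oligodendrocyte lineage markers, 5 were lower at that threshold and 1 was higher. Of 2 microglial markers tested, Cd68 was higher at it (72.5 to 131, difference 0.86) and Ptprc was not called. Of 6 neuron markers 1 was higher at it, Gad1 (difference 0.52), and none was lower. The part of these cells in the differences of the members was not tested.

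In astrocytes, 4 of 10 members were called between Allo and Veh, all higher with Allo: Tnfaip3, Nfkb2, Nfkbia and Nfkbib. Of all genes, 3.72% were called higher and 3.29% lower, so 4 of 10 higher lay above that background, and 0 of 10 lower is no result about the members. The members were chosen with earlier results of these data known, so the count of 4 is a description. Without the trend with abundance in limma's moderation of variance, Nfkbib alone of the 10 stayed called (unadjusted p of 0.00708). No member reached an adjusted p under 0.05 in limma, and 0.00650% of all genes did. All 10 differences were positive, with a median of 0.14 (median of all genes 0.0014), and all 10 stayed positive with each of 3 other scalings. Of all 1078 genes called, 53.1% were higher with Allo, a share that was 39.0% with upper-quartile scaling, under which the same number of members, 4, was called. The 3 Allo libraries were not alike: the difference was largest in Allo 2 and Allo 3, and Allo 1 lay near the Veh libraries for several members.

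Tnfaip3, the feedback inhibitor that removes activating ubiquitin chains from pathway adaptors, stood at 560.5, 682 and 633 in Veh 1, 2 and 3. It stood at 659.8, 1053 and 818 in Allo 1, 2 and 3. Allo 2 and Allo 3 were above every Veh library and Allo 1 was below Veh 2. The mean was 625.2 ± 61.3 in Veh and 844 ± 198 in Allo (SD, n = 3), a difference of 0.41 ± 0.13 (SE; 95% interval 0.13 to 0.69) with an unadjusted p of 0.00698 and an adjusted p of 0.518. It was the one member called in all 6 fits that left out a library, although its difference was 0.24 without Allo 2.

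Nfkbia, the inhibitor that is resynthesised when the canonical arm is active, showed the widest spread among the Allo libraries. Its level was 1716, 1846 and 1636 in Veh 1, 2 and 3. It was 1605 in Allo 1, below all 3 Veh libraries, and 3618 and 2592 in Allo 2 and Allo 3, above all 3. The mean was 1733 ± 106 in Veh and 2605 ± 1007 in Allo, a difference of 0.51 ± 0.19 (SE; interval 0.09 to 0.93) with an unadjusted p of 0.0201 and an adjusted p of 0.648. Without Allo 2 the difference was 0.24 (unadjusted p of 0.113), and without Veh 3 it was 0.47 (unadjusted p of 0.0647). The SD of log2 values within groups was 0.42 for Nfkbia and 0.26 for Tnfaip3, against a median of 0.09 over all genes, and limma's moderated test draws such values towards those of other genes of like abundance. Without the trend in that step the unadjusted p was 0.134 for Nfkbia and 0.0684 for Tnfaip3, and with its robust form 0.199 and 0.0871.

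Nfkbib differed from Nfkbia in being steady within each group. It stood at 267.5, 267 and 258 in Veh 1, 2 and 3 and at 296, 321 and 297.5 in Allo 1, 2 and 3. All Allo libraries lay above all Veh libraries, as for 6.42% of all genes tested (6.07% had all Allo below), and it was the one member of 10 for which they did. The mean was 264 ± 5.38 in Veh and 305 ± 13.9 in Allo, a difference of 0.21 ± 0.08 (SE; interval 0.02 to 0.39) with an unadjusted p of 0.0301 and an adjusted p of 0.684. The two-sided exact permutation test gave p = 0.1, the smallest value that 3 against 3 allows. The call was kept in 3 of 6 fits that left out a library, with unadjusted p-values up to 0.0998, and was lost without Allo 2, Veh 2 or Veh 3.

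**Figure D2:**
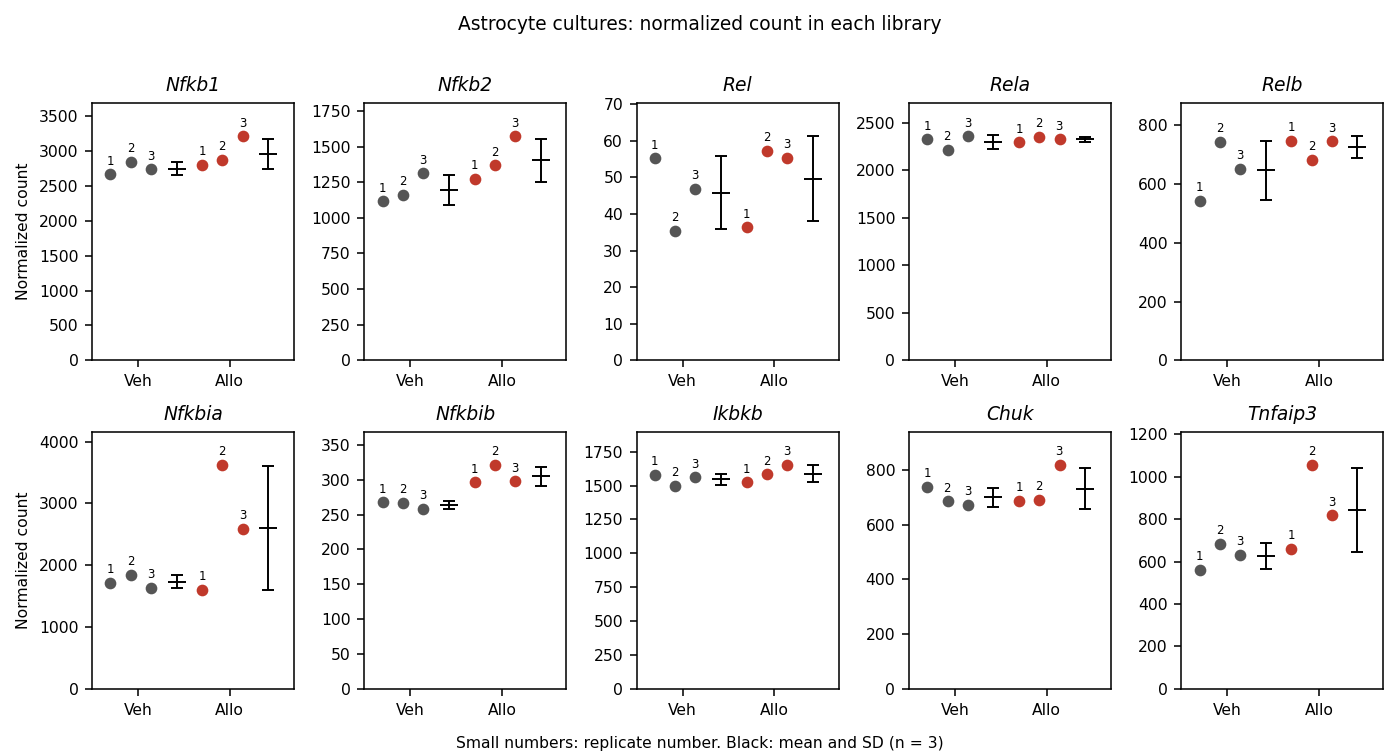
Normalized counts (vertical axes, from 0) of the 10 genes in each astrocyte library, Veh in grey and Allo in red, with the replicate number beside each point and black bars for mean and SD (n = 3). Nfkbia and Tnfaip3 were high in Allo 2 and Allo 3 and near Veh in Allo 1, and the groups were apart for Nfkbib alone.

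Of the subunits, Nfkb2 was called. It stood at 1115, 1162 and 1311 in Veh 1, 2 and 3 and at 1273, 1369 and 1571 in Allo 1, 2 and 3, so that Allo 1 lay below Veh 3. Its mean went from 1196 ± 103 to 1404 ± 152, a difference of 0.23 ± 0.08 (SE; unadjusted p of 0.00951, adjusted p of 0.529). The unadjusted p was 0.0513 without Veh 1 and 0.0517 without Allo 3. With all libraries it was 0.0688 without the trend in limma's moderation and 0.0162 with its robust form. Its partner Relb stood at 542, 745 and 652 in Veh and at 748, 684 and 746 in Allo, with a difference of 0.18 ± 0.09 (SE; interval -0.03 to 0.38). Veh 1 was the low library of Relb and also of Nfkb2. Without Veh 1 the difference of Relb was 0.06, and without Veh 2 it was 0.29 with an unadjusted p of 0.00571.

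Nfkb1 stood at 2668, 2845 and 2737 in Veh and at 2799.6, 2872 and 3210.5 in Allo. Its difference of 0.10 ± 0.05 (SE) had an unadjusted p of 0.0588 and an interval of -0.0045 to 0.21. The unadjusted p in limma was 0.047 with robust moderation, 0.0431 with a block by library number and 0.17 without the trend. Rela was the steadiest of the 10, at 2299 ± 72.5 in Veh and 2325 ± 30.3 in Allo (difference 0.02, interval -0.07 to 0.10). Rel was low here too, at 45.8 ± 9.99 and 49.6 ± 11.5 (0.11, interval -0.42 to 0.63). The kinase genes did not differ beyond the spread: Ikbkb stood at 1545 ± 41.7 and 1586 ± 63.2 (0.04, interval -0.06 to 0.14). Chuk stood at 699.6 ± 35.2 and 732 ± 74.5 (0.06, interval -0.10 to 0.22), with Allo 3, at 818, above the other 5 libraries.

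**Figure D3:**
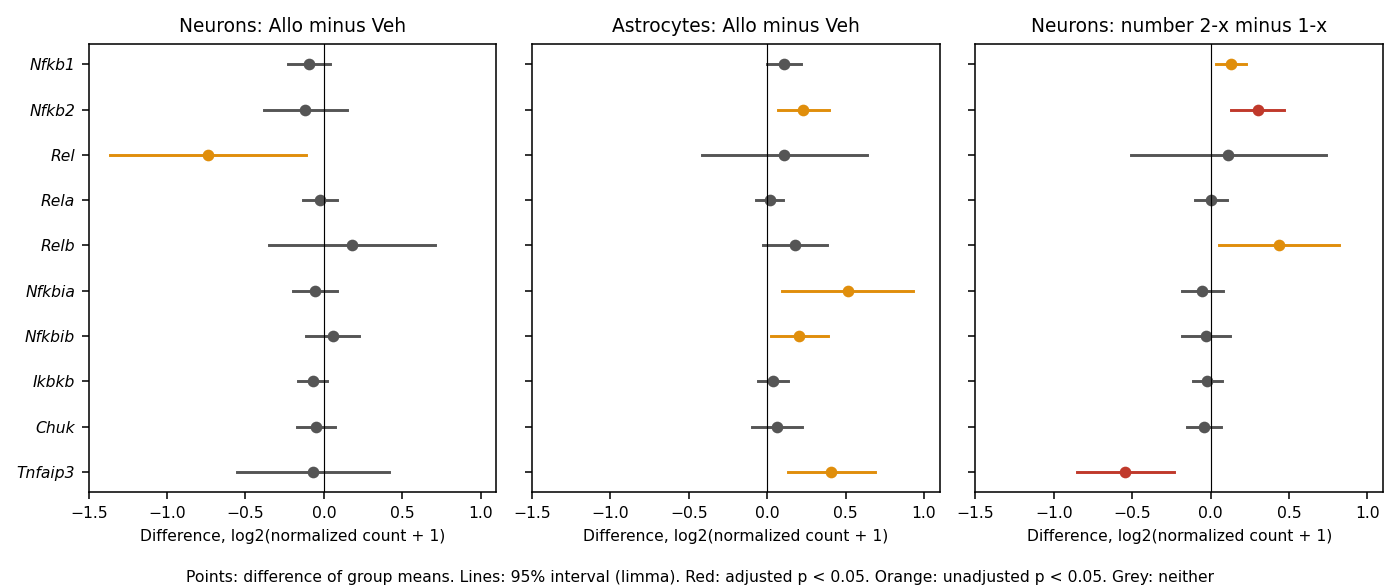
Differences in log2(normalized count + 1) with 95% intervals for the 10 genes: Allo minus Veh in neurons, Allo minus Veh in astrocytes, and first number 2 minus 1 in neurons. Red marks an adjusted p under 0.05, orange an unadjusted p under 0.05 and grey neither. The red points are Nfkb2 (0.30) and Tnfaip3 (-0.54) between the first numbers.

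The number of members called in astrocytes depended on which libraries were in the fit: it was 2 without Veh 3, 3 without Veh 1, Allo 2 or Allo 3, and 5 without Veh 2 or Allo 1. Of these 6 fits, the one without Allo 1 gave adjusted calls among the members. Relative to the Veh mean, the median log2 difference over the 10 members was 0.01 in Allo 1, 0.15 in Allo 2 and 0.22 in Allo 3, against -0.01 to 0.02 in the Veh libraries. Over 29 known target genes it was -0.08 in Allo 1, 0.39 in Allo 2 and 0.19 in Allo 3, while the Veh libraries ran from -0.08 to 0.12. Without Allo 1, 5 of 10 members were called higher, where 4.45% of all genes were, and 2 reached an adjusted p under 0.05, where 0.468% did. These were Nfkbia (difference 0.82, adjusted p = 0.00248) and Tnfaip3 (0.57, adjusted p = 0.0268), each higher in 2 of 2 remaining Allo libraries. This value leaves out a library after its values were seen and is no separate test. Summed microglial markers were 1497, 1899 and 1488 in Veh 1, 2 and 3. They were 1521, 1525 and 1658 in Allo 1, 2 and 3. Veh 2 had the highest sum and was also the highest Veh library for Nfkbia and Tnfaip3. Allo 2, the highest library for both genes, had a sum within the Veh range. Of the 10 microglial markers, 5 had a positive and 5 a negative difference with Allo (median -0.01). None was called higher, and Cx3cr1, a receptor of microglia, was called lower (76.4 to 51.3, difference -0.58). Of 8 astrocyte markers 2 were called lower, Slc1a2 (difference -0.36) and S100b (-0.09), and of 4 neuron markers 1 was, Map2 (-0.13). The part of these markers' cells in the differences of the members was not tested.

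The wider pathway was described with 6 lists of genes around the members, none of which holds a member. In neurons, 82 of 114 listed genes passed the minimum mean and 4 were called with Allo, 2 higher and 2 lower, against 3.21% and 2.48% of all genes, and none at an adjusted p under 0.05. With the first part of the number as a block 6 were called, 3 higher and 3 lower, where 5.76% of all genes were called higher and 5.24% lower. Ager, a receptor for damage signals that activates NF-kappaB, stood at 46.3, 36.9, 49.3 and 42.0 in Veh and at 31.4, 19.9, 22.0 and 30.2 in Allo. All 4 Allo libraries lay below all 4 Veh libraries, as for 1.89% of all genes. The difference was -0.75 ± 0.20 (SE), with an unadjusted p of 0.00335 and an adjusted p of 0.585 in limma. Plau, a target gene that encodes the protease urokinase, was also apart, at 64.5 to 72.6 in Veh and 35.0 to 54.9 in Allo (-0.59 ± 0.17, SE; unadjusted p of 0.00539). Ager and Plau stayed called in all 8 fits that left out a library. Nkiras2, an IκB-interacting inhibitor, was higher by 0.12 (unadjusted p of 0.0226) and Tab3, an adaptor of the kinase TAK1, by 0.21 (unadjusted p of 0.0495), calls that were kept in 5 of 8 and 2 of 8 fits that left out a library.

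In the list of known targets in neurons, 1 of 18 genes was called lower and 0 higher, with a median of -0.05 (median of all genes -0.0015). With the block 2 of 18 were called lower, Plau and F3, the gene of coagulation tissue factor (1493 ± 152 in Veh and 1349.7 ± 50.2 in Allo, difference -0.14), whose unadjusted p was 0.0593 without the block and 0.00223 with it. The block also added Irak2, a kinase of the interleukin-1 receptor pathway, to the genes called higher (difference 0.30; unadjusted p of 0.0507 without and 0.0389 with it). F3 and Irak2 are named after their values were seen. Among receptors it was 1 of 14 lower, among upstream adaptors and kinases 1 of 21 higher, among ubiquitin editors and other negative regulators 1 of 16 higher, and among 9 other IκB proteins and kinase subunits and 4 ligands no gene was called. The gene with the most counts of each list was not called. Tnfrsf1a, the main TNF receptor, stood at 3565 ± 417 in Veh and 3557 ± 376 in Allo. Vcam1, a target gene for cell adhesion, stood at 3230.2 ± 115 and 3252 ± 106, and Hmgb1, a nuclear protein that acts as a ligand when released, at 3172 ± 69.6 and 3150.2 ± 130.3. Irak1, a kinase below the interleukin-1 receptor, stood at 2693 ± 115 and 2745 ± 56.5, Tax1bp1, a partner of A20, at 5541 ± 135 and 5435 ± 199, and Tbk1, an IκB kinase relative, at 846 ± 16.1 and 792 ± 42.6.

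In astrocytes, 101 of the 114 listed genes passed the minimum and 16 were called with Allo, 15 higher and 1 lower, against 3.72% and 3.29% of all genes, and none reached an adjusted p under 0.05 in limma. Known target genes made up 10 of these, with 10 of 29 higher, 0 lower and a median difference of 0.17. Of these 10 targets, Ier3 and Gadd45b alone stayed called without the trend in limma's moderation (unadjusted p of 0.0371 and 0.0334). The others had unadjusted p-values of 0.10 to 0.171 there. With robust moderation Ier3, Gadd45b and Csf1 stayed called. Of the other lists, 1 of 10 IκB proteins and kinase subunits, 1 of 21 upstream adaptors and kinases and 2 of 16 ubiquitin editors and negative regulators were called higher. Of 17 receptors 1 was higher and 1 lower, and of 8 ligands none was called. The target list was drawn up with results of these libraries known, so its count is a description.

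The atypical inhibitor gene Nfkbiz followed Nfkbia across the libraries. It stood at 737, 846 and 767 in Veh 1, 2 and 3 and at 794, 1465 and 1190.3 in Allo 1, 2 and 3. Allo 1 again lay inside the Veh range and the other Allo libraries above it (difference 0.51 ± 0.15, SE; unadjusted p of 0.00562). Cxcl1, a neutrophil-attracting chemokine, stood at 1770.5, 2114 and 1967 in Veh and at 1802, 4222 and 3017 in Allo (0.55 ± 0.20, SE; unadjusted p of 0.0192). With all libraries the adjusted p was 0.498 for Nfkbiz and 0.635 for Cxcl1. Without Allo 1 it was 0.00143 and 0.00248, but that library was left out after its values were seen, so this is no separate test. Neither gene was called without the trend in limma's moderation (unadjusted p of 0.0687 and 0.132) or with its robust form (0.115 and 0.197). Without Allo 2 their differences were 0.31 and 0.26, and Cxcl1 was no longer called (unadjusted p of 0.109).

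Some pathway genes did separate the groups with Allo 1 included. Over all genes tested, 6.42% had all Allo libraries above all Veh libraries and 6.07% had them below. The genes named here were taken from those already called, so their separation is no result about the lists. Zc3h12a, which encodes an RNase that degrades inflammatory messages, had the smallest p-value of the lists, at 354, 386.5 and 432 in Veh and 437, 529 and 604 in Allo (0.41 ± 0.11, SE; unadjusted p of 0.00229, adjusted p of 0.41). All Allo libraries were also above all Veh libraries for Ier3 (1278 ± 28.8 to 1547 ± 206, difference 0.27), the interleukin-1 receptor gene Il1r1 (2693 ± 75.9 to 3010.2 ± 173, 0.16), the stress-response gene Gadd45b (653 ± 35.0 to 784 ± 85.8, 0.26) and the TAK1 kinase gene Map3k7 (1747 ± 42.7 to 1892 ± 58.5, 0.11). Tlr6, a toll-like receptor gene, was the one gene called lower, at 436 ± 7.46 in Veh and 378 ± 38.7 in Allo (-0.21 ± 0.08, SE; unadjusted p of 0.0269), with all Allo libraries below. Of the 16 genes, 5 (Zc3h12a, Ier3, Il1r1, Gadd45b and Nfkbiz) stayed called in all 6 fits that left out a library. Of these 5, Nfkbiz lost its call without the trend in limma's moderation and with robust moderation.

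The remaining calls were of the kind seen for Nfkbia, with Allo 2 and Allo 3 above Veh and Allo 1 inside or below the Veh range. They were Ccl7, a monocyte chemokine (difference 0.36), the interferon-response factor Irf1 (0.26) and Csf1, a growth factor of microglia (0.14). Icam1, an adhesion molecule (0.17), Ccl2 (0.37), Ccl20 (0.43) and Cd83 (0.42) were beyond the 12 smallest p-values and are named after their values were seen. Nlrc5, a regulator of the pathway, was called higher by 0.39 with another order, highest in Allo 3 and Allo 1 and inside the Veh range in Allo 2. These 8 calls were each kept in 2 to 4 of 6 fits that left out a library. C3, the complement gene with the most counts of the targets, stood at 108041 ± 15369 in Veh and 109382 ± 13189 in Allo and was not called. The same held for Tnfrsf1a (4478 ± 156 and 4549 ± 84.7), Hmgb1 (4515 ± 76.4 and 4510.4 ± 97.9), Tab2, another TAK1 adaptor (5264 ± 124 and 5202 ± 125), and Tax1bp1 (6816 ± 139 and 6795 ± 394).

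**Figure D4:**
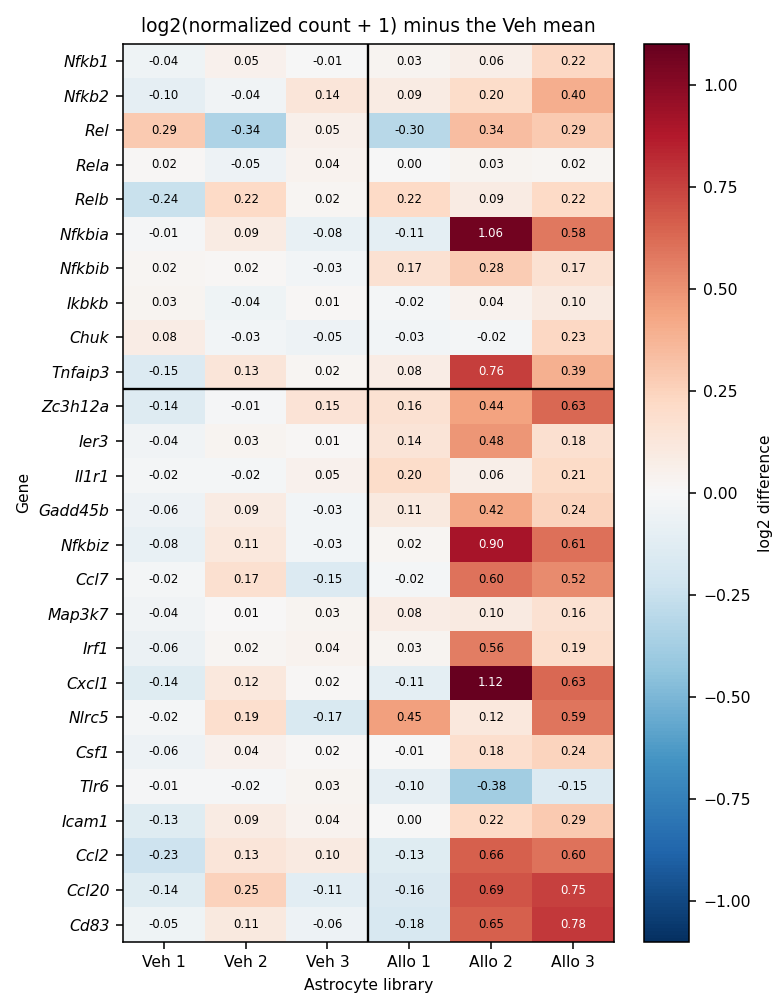
Log2(normalized count + 1) minus the Veh mean in each astrocyte library (columns) for the 10 members (above the line) and the 16 pathway genes called in astrocytes (below it), red above and blue below the Veh mean. Nfkbia, Nfkbiz and Cxcl1 were 1.06, 0.90 and 1.12 above the Veh mean in Allo 2 and -0.11, 0.02 and -0.11 from it in Allo 1.

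The tables of the 2 cultures were normalized separately, so the levels of the members in them can be set side by side but were not tested. Tnfaip3 stood at 52.2 to 98.1 over the neuron libraries and at 560.5 to 1053 over the astrocyte libraries, and Nfkb2 at 178 to 265 and 1115 to 1571. Relb stood at 97.1 to 220.0 in neurons and 542 to 748 in astrocytes, and Nfkbia at 374 to 434 and 1605 to 3618. Nfkb1, Rela, Ikbkb and Rel were also lower in every neuron library than in any astrocyte library. Nfkbib and Chuk had the opposite order, Nfkbib at 478 to 610.1 in neurons and 258 to 321 in astrocytes and Chuk at 1061 to 1255 and 674 to 818. The Allo minus Veh difference of Nfkb1 was below 0 in neurons and above 0 in astrocytes, and that of Rel was -0.74 and 0.11. No test was made of these contrasts between the cultures.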

How the data were processed

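Poly(A)-selected, stranded libraries were sequenced by the authors, quantified against Ensembl release 95 rat transcripts with Salmon 0.14, summed to genes with tximport 1.6.0 and normalized with DESeq2 1.18.1 (tool versions from the submitters' processing notes and the study's methods). The deposited signal used here is a table of normalized counts for each culture, and the authors also deposited variance-stabilized (VST) values, which are on a log2 scale. Whole reads could not be recovered from the normalized counts, so no count model was fitted and depth per library is known only as column totals.

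Values were analysed as log2(normalized count + 1) with limma 3.58.1 in R 4.3.3 (lmFit, eBayes with a trend), for genes with a mean of at least 10 in a culture. The Benjamini-Hochberg adjustment covered every gene tested in a culture. Exact permutation tests were two-sided. The script was tested on simulated data with 200 changed genes. Groups came from the cell type and treatment given in the labels, and 0 sample columns were left out. Named genes were the 10 members, the called pathway genes (up to 12 per culture by p) and the gene with the most counts in each list. The members and lists were chosen with earlier results of these data known.

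Neuron libraries of the same number deviated together from their group means (correlations of 0.452, 0.435, 0.417 and 0.41 over genes with a mean of at least 50). Those that share the first part alone did so to a like degree (0.325, 0.441, 0.431 and 0.346). The first part was therefore fitted as a block beside the unblocked comparison. These correlations do not show that Veh and Allo libraries of the same whole number are pairs. Astrocyte libraries of the same number did not deviate together (0.0132, -0.0654 and 0.0547). In the deposited neuron VST values the difference between first numbers 1 and 2 had been removed from all 18239 genes. Each of the 18 pairs of libraries within a group differed by more than sampling noise. Alternatives were other scalings, pseudocounts of 0.5 and 5, no minimum and a minimum of 50, VST values, other variance moderation, replicate blocks and leaving out each library. Promoter windows were taken from RefSeq (GRCr8), and gene coordinates of the authors' build were not used here.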

Additional observations from a re-analysis of the deposited data

Results flagged for a closer look

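In 3 of the 20 gene and group combinations of 4 neuron libraries, 1 library stood far from the others, as chance gives in about 1 in 20 groups. For Rel in Veh, library 1-2, at 15.7 against 24.7 to 26.4, left a gap of 0.837 of the group's range. For Rela in Veh, library 1-1, at 852 against 889.8 to 891.8, left a gap of 0.95. For Relb in Allo, library 2-1, at 220.0 against 97.1 to 112, left a gap of 0.882. Nfkb1 stood out because every Allo library lay below the Veh mean in neurons and above it in astrocytes, and the Allo minus Veh difference in neurons minus that in astrocytes was -0.201 on the log2 scale. This contrast was not tested, and the tables were normalized separately.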

How the results depend on the processing

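In neurons, members called numbered 1 with each of 3 other scalings, with either pseudocount, with no minimum, with other variance moderation and with a replicate block by the whole number. They numbered 0 with a minimum mean of 50, which removes Rel, and 2 with a replicate block by the first part of the number, with VST values, and with VST values under that block, an alternative chosen after seeing the data. Called pathway genes numbered 4, against 10 with VST values and 7 without the trend. VST values without a block count too many calls over all genes (2204, against 1694 with the block), because the difference between first numbers had been removed from them. In astrocytes, members called numbered 4 with each of 3 other scalings, and 1 without the trend. With robust moderation Nfkb1, Nfkb2 and Nfkbib were called (unadjusted p of 0.047, 0.0162 and 0.032), and Tnfaip3 and Nfkbia were not. Pathway genes numbered 16, against 10 without the trend, not all of them among the 16, and 8 with robust moderation. Astrocyte libraries of the same number are not known to be pairs. A replicate block by number called 5 members and 19 pathway genes in limma. None of them reached an adjusted p under 0.05, where 17 of all genes did. Among the members, the smallest adjusted p with this block was 0.0677, for Tnfaip3 (unadjusted p of 0.000144). Leaving out 1 library gave 0 to 1 called members and 3 to 6 pathway genes in neurons, 2 to 5 and 7 to 29 in astrocytes, and 3 to 4 members between first numbers. Among members, differences that changed sign when 1 library was left out ranged, in neurons, from -0.223 to 0.0707 for Tnfaip3, -0.00977 to 0.108 for Nfkbib, -0.0513 to 0.0152 for Rela and -0.0909 to 0.30 for Relb. In astrocytes they ranged from -0.0614 to 0.315 for Rel, -0.00971 to 0.0339 for Rela and -0.0218 to 0.104 for Chuk. Between first numbers they ranged from -0.0325 to 0.0474 for Rela, -0.0692 to 0.339 for Rel and -0.0977 to 0.0434 for Nfkbib. The first-number difference of Rela was -0.0117 with quantile normalization. None of these was called, and the cause was not tested. Of the other values for single genes with every library in, 484 kept their direction and side of the threshold, 20 lost a call and 5 gained one. Comparing members by transcript length was not run, and VST values could not be used between first numbers. Depth and 3 or 4 libraries a group limit these data: Rel, at about 14 to 23 mean counts in neurons, has the widest interval of the members.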
